A study of Mus musculus with 6 samples.

Results

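The alpha tubulins of the mouse were examined in R1 cells, a male line of embryonic stem cells from the strain 129X1 x 129S1, grown on gelatin with serum and LIF, the cytokine that holds these cells in self-renewal. The family was selected on earlier results of these arrays, the AA2G minus untreated log2 values of its features, and was taken by name as Tuba1a, Tuba1b, Tuba1c, Tuba3a, Tuba3b, Tuba4a and Tuba8, and every array feature annotated to any of them was included, also where a feature lists several symbols. This gave 11 features for the 7 genes, among 25335 annotated features in the table, and 7 of the 11 list 1 symbol and 4 list several. Cells were kept for 3 days with 0.74 mM (250 µg/ml) AA2G, ascorbic acid 2-glucose, a stable vitamin C derivative, or for the same time without it. Each group has 3 arrays of the type Mouse Gene 2.0 ST, 1 for each sample. The line is a single established line, and both groups share its genotype, medium and substrate.

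Alpha and beta tubulin form the dimer from which microtubules are built, and the alpha tubulin genes encode closely similar proteins that differ mainly in where they are expressed. Tuba1a is the main alpha tubulin of developing neurons, and Tuba1b and Tuba1c are used in most dividing cells. Tuba4a and Tuba8 lack the encoded C-terminal tyrosine that the Tuba1 genes have, and Tuba8 is a divergent member. Tuba3a and Tuba3b encode the same protein and are expressed mainly in the testis. In mouse somatic cells both are known to be held down by the repressor E2F6.

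Values are log2 RMA values, which the authors normalised so that all arrays have nearly the same distribution. Array medians lay between 5.06 and 5.10, and pairs of arrays correlated at r = 0.9902 to 0.9924 within groups and at 0.9886 to 0.9912 across groups, over features, which are not independent replicates. A level can be compared between groups at a feature but not between features. All differences are AA2G minus untreated on the log2 scale. In bulk samples, fewer expressing cells and less RNA per cell cannot be told apart.

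Of the family, 1 feature stood apart, and it lists Tuba3a together with Tuba3b (feature 17471087, Entrez Gene 22144 and 22147). Its log2 value was 8.44, 8.96 and 8.56 on the 3 AA2G arrays, against 6.69, 6.92 and 6.80 on the 3 untreated arrays. All AA2G arrays were high and all untreated arrays low, and 1.52 log2 units separated the lowest AA2G array from the highest untreated one. The group means were 8.66 ± 0.27 with AA2G and 6.80 ± 0.12 without (SD, n = 3 each), a fitted difference of 1.85 ± 0.14 (SE), or 3.61-fold. Within replicate numbers 1, 2 and 3 the difference was 1.76, 2.04 and 1.76. Among all 25335 features it ranked 21 by signed difference, counted from the largest rise. This difference was known when the family was chosen, so it is given as a description and without a p-value.

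The second Tuba3 feature, which lists the same 2 genes in the other order (17464263), had log2 values of 5.35, 5.33 and 5.44 with AA2G, against 5.12, 5.09 and 5.47 without. Here the groups overlapped, since untreated replicate 3 was the highest of the 6 arrays. The fitted difference was 0.15 ± 0.11 (SE). The 2 features therefore disagree, and because each lists both genes, the annotation alone does not tell Tuba3a from Tuba3b. By number, the leading feature falls between those of Cd27 (17471073) and Ltbr (17471094), the genes beside Tuba3a. The second falls just before that of Rassf8 (17464271), beside Tuba3b. Whether each feature reads only the gene at its place was not tested. The probe sequences of these features were not used here, and whether the dim feature can follow its transcript was not tested.

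**Figure D1:**
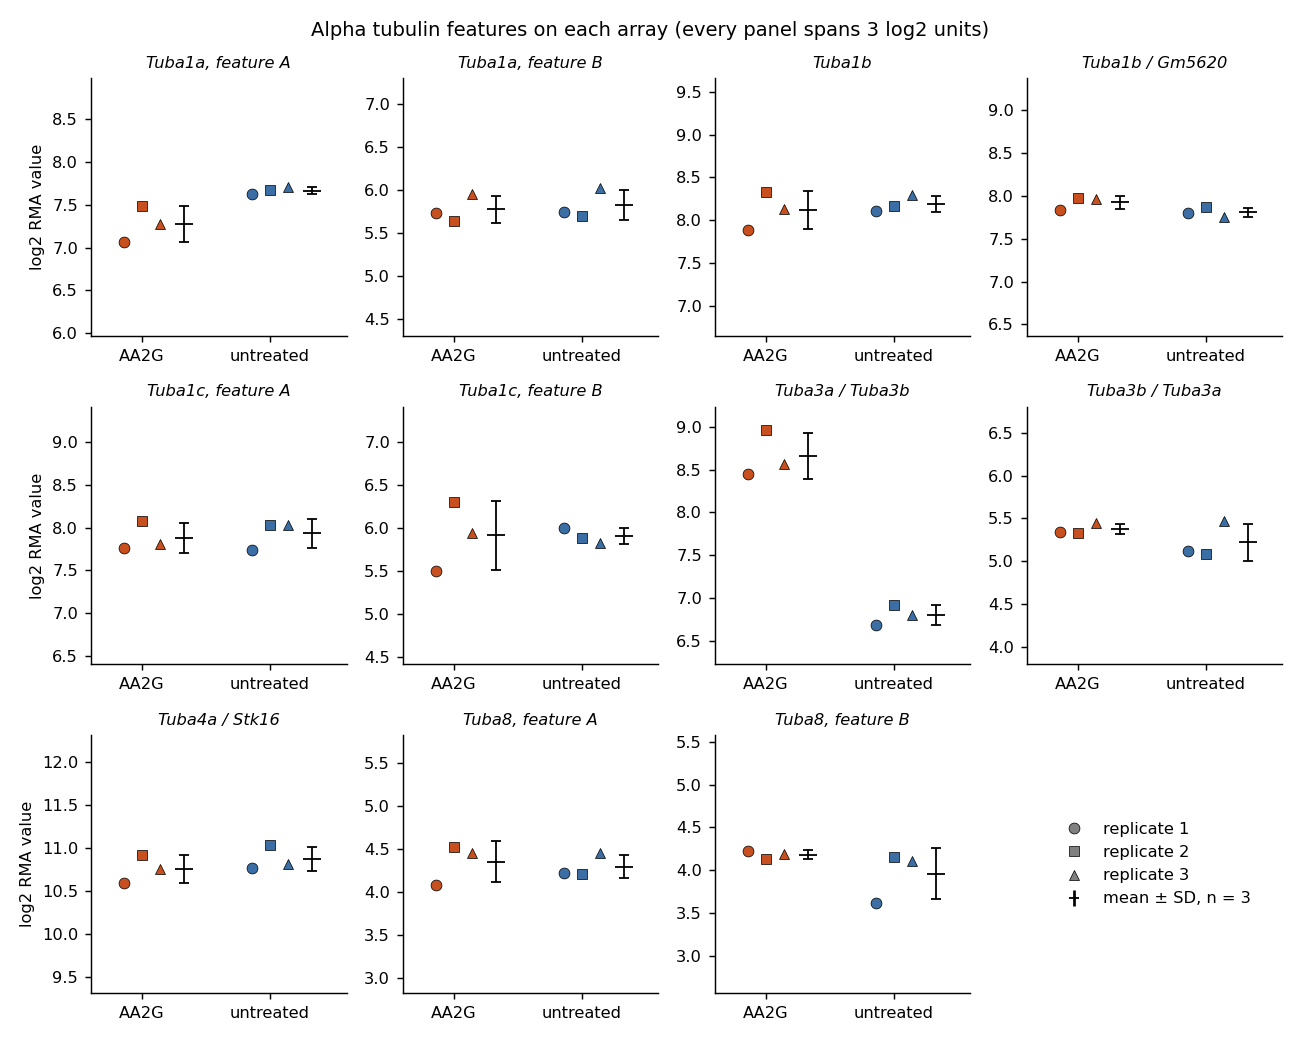
Log2 RMA values of the 11 alpha tubulin features on each AA2G array (left) and untreated array (right), with a panel for each feature and the mean ± SD of 3 arrays beside the points. The Tuba3a / Tuba3b panel has all AA2G arrays between 8.44 and 8.96 and all untreated arrays between 6.69 and 6.92; Tuba1a, feature A, has its AA2G arrays below the untreated arrays, and in the other panels the groups overlap.

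Because the leading feature lists both Tuba3 genes, the promoters of both are shown, each from 250 bases before the annotated start to 50 bases after it, 5′ to 3′ on the gene's strand. The sequences are RefSeq's, of GRCm38.p6, at chr6:125286032-125286331 on the minus strand for Tuba3a and at chr6:145615713-145616012 on the plus strand for Tuba3b. Capitals mark GCGGGA, the core of E2F-type sites, on either strand (TCCCGC when it lies on the opposite strand), and the CCAAT box.
Tuba3a: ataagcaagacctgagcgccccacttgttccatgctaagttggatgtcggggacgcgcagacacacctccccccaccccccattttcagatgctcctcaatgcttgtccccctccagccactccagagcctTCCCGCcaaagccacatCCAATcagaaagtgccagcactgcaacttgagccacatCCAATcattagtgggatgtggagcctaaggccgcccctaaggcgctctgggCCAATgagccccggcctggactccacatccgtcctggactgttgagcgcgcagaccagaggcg
Tuba3b: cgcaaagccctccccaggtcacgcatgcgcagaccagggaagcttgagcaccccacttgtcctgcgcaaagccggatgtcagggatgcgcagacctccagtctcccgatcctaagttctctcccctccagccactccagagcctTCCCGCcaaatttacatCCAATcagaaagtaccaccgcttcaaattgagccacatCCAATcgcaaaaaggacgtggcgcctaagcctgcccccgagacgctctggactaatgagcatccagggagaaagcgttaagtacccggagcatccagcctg

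The 2 Tuba3 promoters were more alike than any other pair of promoters in the family. In a global alignment 202 of 332 columns were identical (60.8%), where the 20 other pairs of promoters in the family ran from 42.4% to 51.7%. The longest stretch that both hold is 33 bases long and contains the E2F-type match, shown in capitals.
Tuba3a and Tuba3b, shared: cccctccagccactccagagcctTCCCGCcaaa
This stretch lies at chr6:125286191-125286223 for Tuba3a and chr6:145615834-145615866 for Tuba3b. The E2F-type match begins 119 bases before the annotated start in Tuba3a and 106 bases before it in Tuba3b. In both promoters, CCAAT follows at 17 and at 55 bases from the first base of that match. Tuba3a has a further CCAAT 106 bases from it.

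A search of both strands found GCGGGA in 4 of the 7 promoters of the family, those of Tuba1c, Tuba3a, Tuba3b and Tuba4a, once in each. Of all 32841 promoter windows of this length in the table, 20.0% hold it, so a match is common. The E box CACGTG, which the MGA and MAX proteins bind, was found in the Tuba8 promoter among the family and is held by 7.15% of all windows. CCAAT, searched after the sequences were seen, was found in the promoters of Tuba1a (1 match), Tuba1c (1), Tuba3a (3) and Tuba3b (2) and is held by 37.4% of all windows. The matches in the Tuba3 promoters do not overlap each other. The windows around each E2F-type match of the family follow, to show how far the bases beside it are shared.
Tuba3a: actccagagcctTCCCGCcaaagccacatc
Tuba3b: actccagagcctTCCCGCcaaatttacatc
Tuba1c: gccttctagaagGCGGGAgtaaagagtaag
Tuba4a: tgagcgcgcaggTCCCGCctcctgcctata

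Of the 24 bases beside the match, 21 were identical between Tuba3a and Tuba3b. Read in the direction of TCCCGC, Tuba3a shared 5 of them with Tuba1c and 5 with Tuba4a. These windows lie at chr6:125286183-125286212, chr6:145615845-145615874, chr15:99029697-99029726 and chr1:75219280-75219309. Of CG dinucleotides, the targets of DNA methylation, the 300 bases held 12 in Tuba3a, 16 in Tuba3b, 16 in Tuba1a, 39 in Tuba1b, 7 in Tuba1c, 24 in Tuba4a and 12 in Tuba8. The median over all promoter windows was 7. The Tuba3 promoters thus held more CG than the median window and fewer than those of Tuba1b and Tuba4a. DNA methylation was not measured in these samples.

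**Figure D2:**
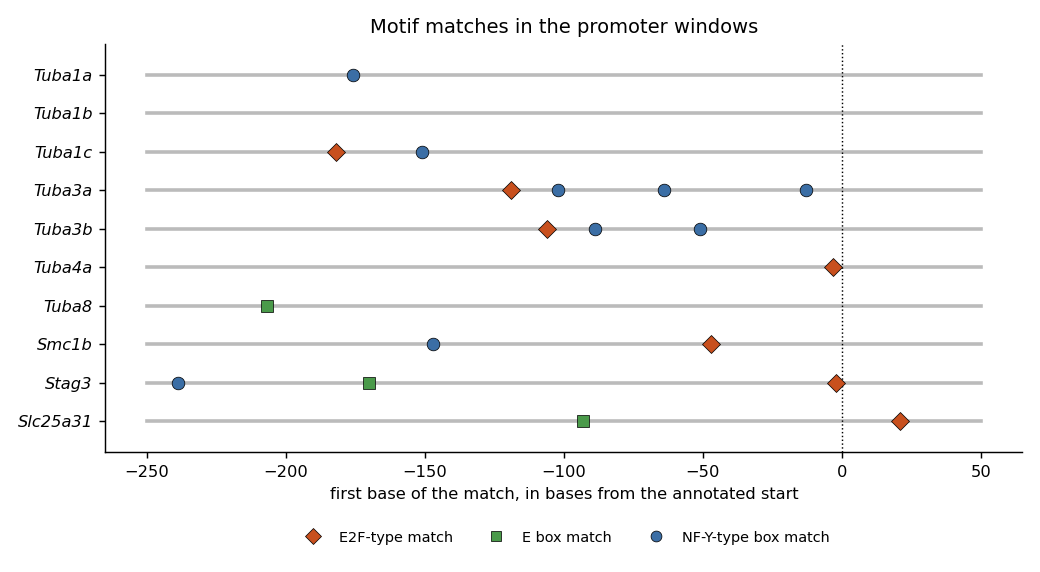
Position of motif matches in the promoter windows of the 7 alpha tubulin genes and of the germline genes Smc1b, Stag3 and Slc25a31, in bases from the annotated start, on either strand. In Tuba3a and Tuba3b the E2F-type match (diamond) is followed at the same 2 distances, 17 and 55 bases, by a box of the type NF-Y binds (CCAAT).

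The alpha tubulins of dividing cells gave small differences. Tuba1b, on a feature of its own (17314679), had 7.89, 8.33 and 8.13 with AA2G, against 8.11, 8.16 and 8.29 without, and the groups overlapped. A second feature (17321467), which also lists the pseudogene Gm5620, had 7.84, 7.97 and 7.97 with AA2G, against 7.80, 7.86 and 7.76 without. The fitted differences of the 2 features were -0.07 ± 0.12 and 0.12 ± 0.07 (SE). Neither sets its groups apart, and the sign of the first is not settled, since it ran from -0.18 to 0.04 under the alternatives.

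Tuba1c had 7.76, 8.07 and 7.80 with AA2G, against 7.74, 8.03 and 8.03 without, at its brighter feature (17314693). At its other feature (17321481) it had 5.50, 6.30 and 5.94 with AA2G, against 6.01, 5.89 and 5.83 without. The groups overlapped at both, and the fitted differences were -0.06 ± 0.12 and 0.01 ± 0.18 (SE). The AA2G arrays of the second feature had an SD of 0.40, the widest of any alpha tubulin feature in either group.

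Tuba1a, the alpha tubulin of developing neurons, was the only other member whose groups were apart at a feature. At its brighter feature (17321474) the values were 7.07, 7.48 and 7.28 with AA2G, against 7.62, 7.67 and 7.70 without. All AA2G arrays lay below all untreated arrays, with a gap of 0.14 between AA2G replicate 2 and untreated replicate 1. The means were 7.28 ± 0.21 with AA2G and 7.66 ± 0.04 without (SD, n = 3 each) and the fitted difference -0.39 ± 0.11 (SE). The dimmer feature (17314682) had 5.73, 5.65 and 5.95 with AA2G, against 5.75, 5.70 and 6.03 without, a difference of -0.05 ± 0.12 with overlapping groups. The dimmer feature ran from -0.14 to 0.05 under the alternatives, so its sign is not settled, while the brighter one ran from -0.49 to -0.28.

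Tuba4a shares its feature (17224540) with Stk16, a kinase gene next to it on the chromosome, so its value cannot be given to Tuba4a alone. The feature had 10.6, 10.9 and 10.8 with AA2G, against 10.8, 11.0 and 10.8 without, and a difference of -0.12 ± 0.11 (SE). Stk16 has a feature of its own, at 8.25 ± 0.23 with AA2G and 8.21 ± 0.16 without (SD, n = 3 each).

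Tuba8 was dim at both of its features. The brighter (17470510) had 4.08, 4.52 and 4.46 with AA2G, against 4.22, 4.21 and 4.45 without, a difference of 0.06 ± 0.13 (SE). The other (17462430) had 4.23, 4.13 and 4.19 with AA2G, against 3.62, 4.16 and 4.11 without, a difference of 0.22 ± 0.14 in which untreated replicate 1 was the low array. The groups overlapped at both. Tubal3, a more distant paralogue outside the 7 genes, was at 3.68 ± 0.17 with AA2G and 3.70 ± 0.17 without (SD, n = 3 each).

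In the limma model over all annotated features, 1 of the 11 features passed a Benjamini-Hochberg adjusted p of 0.05 as higher, the leading Tuba3 feature, 0 passed as lower and 10 did not pass. Over all features 0.801% passed, 0.659% as higher and 0.142% as lower. The groups did not overlap at 1 feature as higher and at 1 as lower, where over all features this held for 7.28% as higher and 8.32% as lower, 15.6% in all. As the family was chosen with this contrast known, these counts describe it and carry no more. The median difference over the 11 features was 0.01, and over all features it was -0.01. The 10 features other than the leading one lay between -0.39 and 0.22.

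The pooled SD between replicates had a median of 0.17 over the 11 features, against 0.12 over all features. At 8 of the 11 features AA2G replicate 2 was the highest of the 3 AA2G arrays, where 36.6% of all features had that array highest. Without AA2G replicate 2 the difference at the leading Tuba3 feature was 1.70, the lowest value when any of the arrays was left out.

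**Figure D3:**
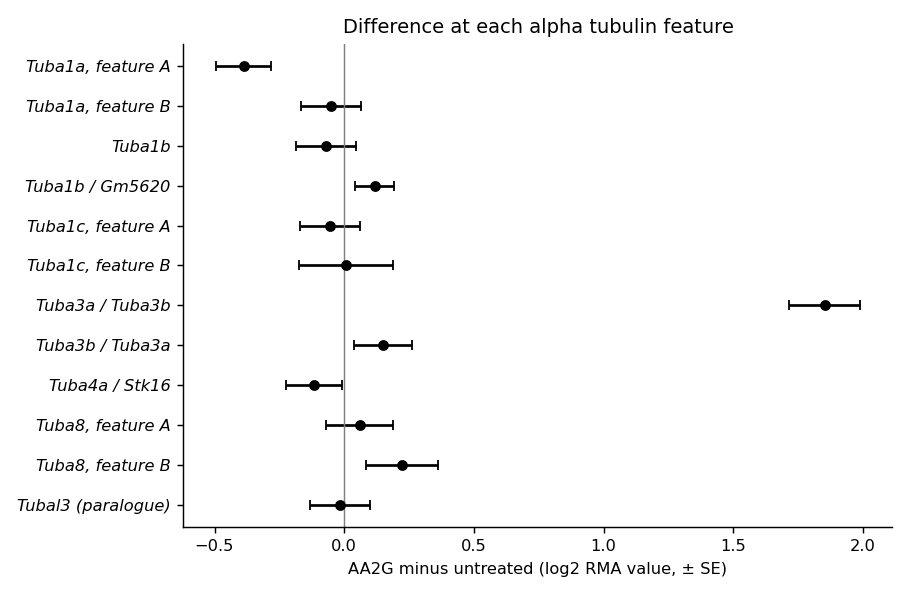
Fitted difference, AA2G minus untreated, at each of the 11 alpha tubulin features and at the paralogue Tubal3, with bars for the SE. The Tuba3a / Tuba3b feature lies at 1.85 and the others between -0.39 and 0.22.

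The 6 features whose profile over the 6 arrays was most like that of the leading Tuba3 feature were those of Usp26, Zfp981, Rhox13, Rpl10l, Arl14epl and Pnma5, in order of likeness. The measure was the root mean square difference between mean-centred log2 profiles, over 23514 features with 1 symbol, the family left out. It was 0.09 for Usp26, 0.09 for Zfp981, 0.10 for Rhox13, 0.12 for Rpl10l, 0.14 for Arl14epl and 0.18 for Pnma5, where the median feature was at 0.95. Usp26, a deubiquitinase gene of the testis, was at 7.52, 8.03 and 7.70 with AA2G, against 5.77, 5.81 and 5.76 without. Rhox13, a homeobox gene of germ cells, was at 6.78, 7.16 and 6.92 with AA2G, against 5.01, 5.21 and 4.88 without. Rpl10l, a testis paralogue of a ribosomal protein gene, was at 7.57, 7.87 and 7.80 with AA2G, against 5.72, 5.91 and 6.01 without. Zfp981 was at 8.22, 8.63 and 8.17 with AA2G, against 6.22, 6.65 and 6.35 without. Arl14epl was at 7.68, 8.16 and 7.79 with AA2G, against 5.64, 6.14 and 5.70 without. Pnma5 was at 5.63, 6.16 and 5.85 with AA2G, against 4.22, 4.61 and 4.27 without. Like the leading Tuba3 feature, all 6 had their highest AA2G value in replicate 2, a likeness that the measure itself selects for. The fitted differences of the 6 lay between 1.51 (Pnma5) and 2.05 (Arl14epl). Usp26, Rhox13 and Pnma5 lie on the X chromosome, Zfp981 on chromosome 4, Rpl10l on chromosome 12 and Arl14epl on chromosome 18, while both Tuba3 genes lie on chromosome 6. The likeness rests on the contrast that chose the family, and it is a description of 6 arrays.

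**Figure D4:**
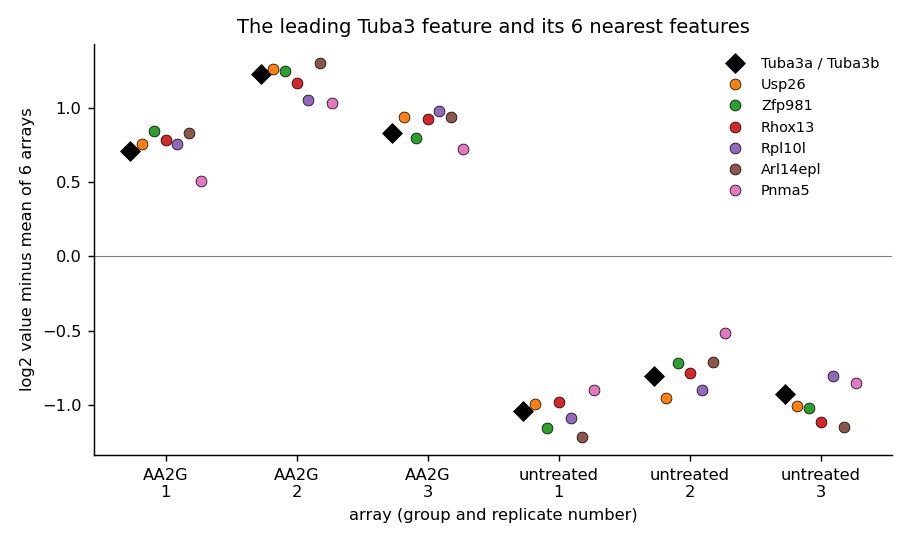
Log2 value minus the mean of the 6 arrays for the leading Tuba3 feature (black diamonds) and the 6 features nearest to it, by array. On every AA2G array all 7 features lie above their mean and on every untreated array all lie below it.

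The genes beside the family on the chromosome were then looked up in the order of the RefSeq table, a comparison chosen after the family's values were seen. Tuba1b, Tuba1a and Tuba1c follow each other on chromosome 15 with 0 other protein-coding genes between them. The nearest 2 protein-coding genes on each side of Tuba3a and of Tuba3b gave 6 features with 1 symbol, for 6 of 8 genes, and 0 of the 6 passed in limma, with 1 at an unadjusted p under 0.05. Next to Tuba3a, the lymphotoxin receptor gene Ltbr was at -0.08 ± 0.07 (SE; limma adjusted p = 0.808), the T-cell costimulator gene Cd27 at -0.11 ± 0.08 (adjusted p = 0.754) and Tapbpl, of antigen presentation, at -0.31 ± 0.12 (adjusted p = 0.434). Next to Tuba3b, Rassf8 was at -0.17 ± 0.07 (adjusted p = 0.520) and the transcription factor gene Bhlhe41 at 0.35 ± 0.28 (adjusted p = 0.766). Over the neighbours of all 7 members, 0 of 18 features passed and 3 had an unadjusted p under 0.05, where 9.69% of all features did. Beside the Tuba1 cluster, Prph, an intermediate filament gene of neurons, was at -0.36 ± 0.13 (adjusted p = 0.376). Troap, a spindle protein gene, was at -0.26 ± 0.08 (adjusted p = 0.257). Both were negative like the brighter Tuba1a feature. On the other side of the cluster, Lmbr1l was at 0.08 ± 0.10 and Dhh at -0.08 ± 0.09.

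Lists of related genes, among them the partners of alpha tubulin, were compared in the same model. Of 119 genes in 7 lists, 113 had a feature of their own, 124 features in all, of which 1 rose and 1 fell, where 0.801% of all features passed in either direction. At an unadjusted p under 0.05 there were 16 of the 124, against 9.69% of all features. The 1 that rose was Smc1b, from a list of germline genes made with that rise known. That list, described below, gave 3 of the 16. Of the 10 features of the 8 beta tubulins, 0 passed in limma, and their median was -0.05. Without adjustment, 1 was higher and 1 lower at p under 0.05. Tubb2a had the smallest p, at 7.86 ± 0.19 with AA2G and 7.43 ± 0.17 without (SD, n = 3 each; limma adjusted p = 0.247), and its groups did not overlap. Tubb2b was at 0.14 ± 0.07 and, at its second feature, 0.15 ± 0.08 (SE), Tubb1, the beta tubulin of platelets, at -0.22 ± 0.09 and Tubb4a at -0.27 ± 0.12 (SE), with adjusted p from 0.487 to 0.622.

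Of 11 features for gamma, delta and epsilon tubulin and the ring complex that nucleates microtubules, 0 passed in limma, and the median was -0.0042. Here too, 1 was higher and 1 lower before adjustment. Over all features, 0.801% passed in either direction and 9.69% had an unadjusted p under 0.05. Tubg2 was at -0.30 ± 0.10 (SE; limma adjusted p = 0.341), Tubg1 at -0.10 ± 0.07, the delta tubulin gene Tubd1 at -0.09 ± 0.07 and Nedd1, which brings the ring complex to the centrosome, at 0.19 ± 0.08 (adjusted p = 0.463). Of 23 features for the chaperones and cofactors that fold tubulin, 0 passed and 0 had an unadjusted p under 0.05, and the differences lay between -0.17 and 0.13. Among them, Ttc5, which recognises nascent tubulin when tubulin mRNA is to be degraded, was at 0.13 ± 0.07 (adjusted p = 0.640), and the chaperonin subunit gene Cct3 at -0.14 ± 0.07 (adjusted p = 0.616). The prefoldin subunit gene Vbp1 was at -0.17 ± 0.08 and Cct6b, the testis form of a chaperonin subunit, at 0.13 ± 0.08.

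Enzymes that modify alpha tubulin gave 0 of 26 features past the threshold in limma and a median of 0.01. Before adjustment, 2 were higher and 2 lower at p under 0.05. The shares over all features were 0.801% past the threshold and 9.69% before adjustment. Ttll6, a polyglutamylase of cilia, was at 5.37 ± 0.07 with AA2G and 5.76 ± 0.04 without (SD, n = 3 each), with groups apart and a limma adjusted p of 0.0665. It passed with array weights (limma adjusted p = 0.0262) and with brighter features only (0.0290), and over all alternatives its adjusted p ran from 0.0262 to 0.256. Ttll4, another polyglutamylase, was at -0.19 ± 0.08 (SE), the tubulin deacetylase gene Hdac6 at 0.23 ± 0.08 and Agbl3, of the carboxypeptidases that shorten tubulin tails, at 0.30 ± 0.09, with adjusted p from 0.298 to 0.484.

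Of 25 features for microtubule-associated proteins and stathmins, 1 fell, 0 rose and 24 did not pass, where 0.801% of all features passed in either direction. Stmn3, a neuronal stathmin that binds tubulin dimers, was at 6.91 ± 0.12 with AA2G and 7.45 ± 0.08 without (SD, n = 3 each), a difference of -0.55 ± 0.09 (SE; limma adjusted p = 0.0367). That call was lost when any single array was left out (limma adjusted p from 0.0666 to 0.194) and when the features without a symbol were fitted too (0.116). Mapt, which encodes tau, was at 0.31 ± 0.09 (adjusted p = 0.232), Map6 at -0.22 ± 0.10 at one feature and 0.17 ± 0.15 at its other, and the mitotic kinesin gene Kif2c at -0.17 ± 0.07. The list median was -0.01.

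Genes of the sperm tail and the manchette, the microtubule structures in which testis tubulin is used, gave 0 of 26 features past the threshold in limma. Over all features 0.801% passed in either direction. Before adjustment, 2 were higher and 0 lower at p under 0.05, where 9.69% of all features reached it. Their differences lay between -0.24 and 0.26 with a median of -0.03. Spag6, of the central pair, was at 0.19 ± 0.07 (SE; limma adjusted p = 0.371), and -0.08 ± 0.09 at its second feature. Spag16, also of the central pair, was at 0.26 ± 0.10 (adjusted p = 0.448), the tektin gene Tekt3 at -0.24 ± 0.11 and the anchoring protein gene Akap3 at 0.22 ± 0.10.

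Germline genes known, like Tuba3a and Tuba3b, to be held down by E2F6 formed a list of 3. Of these 1 rose, and 2 did not pass with positive values, with an unadjusted p under 0.05 for all 3 and a median of 0.79. Over all features 0.659% passed as higher, and 9.69% had an unadjusted p under 0.05. Smc1b, a meiotic cohesin subunit, rose by 1.58 ± 0.18 (SE; limma adjusted p = 0.00711), with means of 7.79 ± 0.17 with AA2G and 6.21 ± 0.37 without (SD, n = 3 each). Slc25a31, the germ cell ADP/ATP carrier, was at 5.37 ± 0.30 with AA2G and 4.58 ± 0.25 without (limma adjusted p = 0.116). Stag3, another meiotic cohesin subunit, was at 8.89 ± 0.13 with AA2G and 8.50 ± 0.23 without (limma adjusted p = 0.310). The rise of Smc1b was known when the list was made, so the list is not independent evidence of a direction. Their promoters each hold 1 E2F-type match, shown here to set its surroundings beside those of the Tuba3 pair.
Smc1b: aaaagaatttctTCCCGCgctttttttttt
Stag3: tatcccgtgcctTCCCGCgtttttttctaa
Slc25a31: cagcgcccgcttTCCCGCcagggtaaagct
Tuba3a shared 5 of the 24 bases beside the match with Smc1b, 9 with Stag3 and 8 with Slc25a31, and 5 each with Tuba1c and Tuba4a. Tuba3b shared 8 with Smc1b, 12 with Stag3 and 8 with Slc25a31, and 6 with Tuba1c and 5 with Tuba4a. Over the 20 pairs of windows other than Tuba3a with Tuba3b, the count ran from 2 to 12. Smc1b with Stag3 also shared 12. Whether any of these counts exceeds that of unrelated windows was not tested. The windows of Smc1b, Stag3 and Slc25a31 lie at chr15:85131987-85132016, chr5:138280495-138280524 and chr3:40708879-40708908 of GRCm38.p6.

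**Figure D5:**
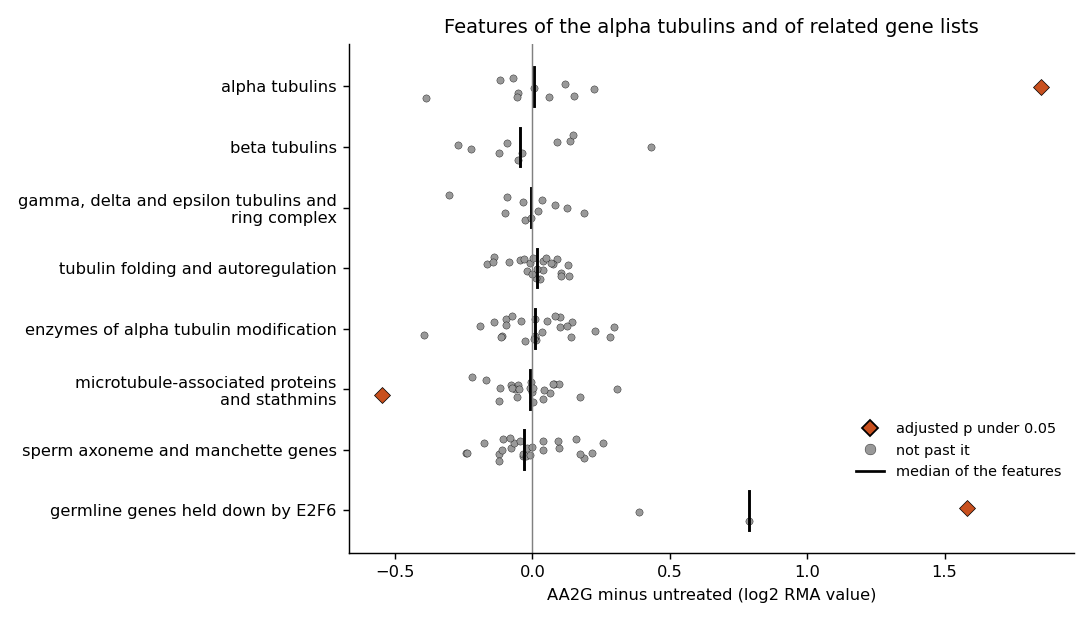
Difference, AA2G minus untreated, of each feature of the alpha tubulins and of 7 related gene lists, with features past an adjusted p of 0.05 as diamonds and each list's median as a bar. The diamonds are the leading Tuba3 feature at 1.85, Smc1b at 1.58 and Stmn3 at -0.55.

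The defining transcripts of the cells' label were read in both groups. Nanog was at 11.17 ± 0.04 with AA2G and 11.34 ± 0.03 without (SD, n = 3 each). Sox2 was at 11.14 ± 0.05 with AA2G and 11.15 ± 0.17 without, and Pou5f1 at 7.47 ± 0.01 with AA2G and 7.64 ± 0.02 without. Of the 12 pluripotency markers 0 passed in limma, 10 were negative, and 3 had an unadjusted p under 0.05 as lower, where 9.69% of all features reached it in either direction. These 3 were Klf4, at -0.31 ± 0.07 (SE, limma adjusted p = 0.121), Nanog at -0.17 ± 0.07 and Pou5f1 at -0.16 ± 0.07, each with groups apart. Klf4 passed with array weights (limma adjusted p = 0.0262) and with a trended robust prior (0.0356). Over all alternatives its adjusted p ran from 0.0262 to 0.398. The list mean lay between 9.28 and 9.30 on the AA2G arrays and between 9.36 and 9.39 on the untreated arrays, ranges that do not overlap, and the part of this shift in the Tuba3 value was not tested. Since Tuba3 is expressed in the testis, markers of male germ cells past meiosis were read beside it: of 12 features for 11 genes, 1 rose, Ldhc, the lactate dehydrogenase of the germ line, by 0.76 ± 0.07 (SE; limma adjusted p = 0.00331). The other 11 did not pass, where 0.659% of all features passed as higher. Among them, the protamine gene Prm1 was at 4.85 ± 0.17 with AA2G and 4.79 ± 0.17 without (SD, n = 3 each). The transition protein gene Tnp2 was at 4.61 ± 0.10 with AA2G and 4.53 ± 0.07 without. Spaca1 was at 0.26 ± 0.08 (SE, limma adjusted p = 0.312), with groups apart and an unadjusted p under 0.05. Of the 12 differences 6 were positive and 6 negative, the lowest at -0.15. The mean over the list lay between 5.18 and 5.22 on the AA2G arrays and between 5.12 and 5.15 on the untreated arrays. These ranges do not overlap, but the mean includes Ldhc, the largest difference of the list, and the median difference was 0.02. The mean also includes an Odf1 feature at 12.3 in both groups. The part of such cells in the Tuba3 value was not tested. An array has no true 0, and with no detection calls in the table a low value may be background.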

How the data were processed

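RNA of 3 AA2G and 3 untreated cultures of R1 cells was measured on Mouse Gene 2.0 ST arrays. The deposited log2 values are the authors' RMA output of Affymetrix Expression Console, as the notes of the submitters on processing (per the labels) say without a version. Quantile normalization hides a change in total RNA, and fold changes of dim features are understated. The number of arrays limits the precision.

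Of 41345 features, the 25335 with at least 1 gene symbol in the platform annotation were fitted (limma 3.58.1, R 4.3.3, eBayes, two-sided, no covariate), with Benjamini-Hochberg adjustment over all of them. Features with several symbols (1814) stayed in because 4 alpha tubulin features are among them; the related lists used features with 1 symbol. An exact permutation test of 3 against 3 cannot give a p below 0.1. The labels call the samples independent replicates, and p-values measure the spread between them. The procedure was tested on simulated data. Promoters are RefSeq's (GRCm38.p6, all 7 genes matched), aligned with Biopython 1.88 (match 2, mismatch -1, gap opening -5, gap extension -1). Protein sequences were not used here.

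The members and lists were chosen with earlier results of these data known. Genes named are all members, in each list those past the threshold and up to 4 with the smallest p, the 6 features nearest to the leading Tuba3 feature, and 3 pluripotency genes. Neighbours, the CCAAT box, Tubal3, Klf4, Ldhc, Prm1, Tnp2, Spaca1 and Odf1 were chosen after values were seen. Alternatives changed the scaling (repeated quantile normalization, 1 common median), the prior (trended and robust), the weights of arrays, the block (replicate number) and the features fitted (above percentile 40 of the mean, 1 symbol, or all), and each array was left out in turn.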

Additional observations from a re-analysis of the deposited data

How the results depend on the processing

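The difference at the leading Tuba3 feature moved by less than the spread between replicates under all 13 alternatives that hold it, from 1.70 to 1.96, and 1 alpha tubulin feature passed in each. With arrays left out in turn, features past the threshold numbered 88 to 150 (78 to 134 higher, 9 to 19 lower), against 203 (167 and 36) with all arrays. They numbered 131 (111 and 20) when all features were fitted, 551 (350 and 201) with array weights and 326 with a trended robust prior (86 lower), and 92 were lower with brighter features only. Of the modifying enzymes 1 passed with array weights and 1 with brighter features only. Of the 3 genes held down by E2F6, 2 passed with array weights and 2 with the replicate block, the second being Slc25a31 (limma adjusted p = 0.0226 and 0.0210, from 0.0210 to 0.360 over its alternatives). Of microtubule-associated proteins 0 passed when all features were fitted, and 0 with any array left out. Of the 11 alpha tubulin features, 5 changed sign under some alternative: the dimmer Tuba1a, the Tuba1b feature without Gm5620, both Tuba1c and the brighter Tuba8 feature. With arrays left out, Sox2 ran from -0.097 to 0.078 and Stk16 from -0.072 to 0.15, so neither has a settled sign. The fit of all features adjusts over more tests; the cause of the other shifts was not tested.

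Same-numbered arrays deviated from their group means with correlations of 0.23, 0.22 and 0.01 over features, and each array correlated best with its own number, a hint from the data only, so the numbers were not treated as pairs. With the replicate block 169 features passed (144 higher, 25 lower), and the Tuba3 difference was 1.85. Dim features limit what can be said of Tuba8, Tubal3 and the second Tuba3 feature.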

Other observations

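Across 7 lists of markers for other cell types (primitive endoderm, neurons, fibroblasts, trophoblast, mesoderm, male germ cells and ciliated cells), 1 of 61 features rose, that of Ldhc, and 0 fell in limma. Over all features 0.801% passed in either direction. Before adjustment, 2 were higher and 4 lower at p under 0.05, where 9.69% of all features reached it. The list means lay, on the AA2G arrays and then the untreated arrays, between 5.22 and 5.40 and between 5.34 and 5.50 for neurons, which use Tuba1a, and between 5.05 and 5.18 and between 5.03 and 5.10 for ciliated cells. The ranges of both lists overlap between the groups.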
